A study of Arabidopsis thaliana with 12 samples.

Results

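The morning part of the Arabidopsis circadian clock rests on a family of MYB-like transcription factors that peak around dawn, and on the LNK proteins that work with some of them. Counts of 10 such genes were followed here: CCA1 (AT2G46830), LHY (AT1G01060), RVE1 (AT5G17300), RVE2 (AT5G37260), RVE7 (AT1G18330), RVE4 (AT5G02840), RVE6 (AT5G52660), RVE8 (AT3G09600), LNK1 (AT5G64170) and LNK2 (AT3G54500). They were picked by their locus identifiers, which make up 10 of the 33655 genes in the table of counts. All 10 had enough counts to be tested, as did 18487 genes in all.

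CCA1 and LHY bind DNA in the regulatory regions of afternoon and evening genes and repress them, and they are themselves repressed later in the day by the PRR proteins. RVE8, RVE4 and RVE6 bind the same element, the evening element, and activate such genes instead. LNK1 and LNK2 have no DNA-binding domain of their own and act as coactivators with these RVE proteins. RVE1, RVE2 (also called CIR1) and RVE7 (also called EPR1) are regulated by the clock and carry its rhythm to growth, dormancy and greening. In seedlings grown in the dark, light sensed by phytochromes acts on several of these genes.

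The libraries came from whole seedlings of Arabidopsis thaliana, and 2 genotypes were compared in 2 light conditions. One genotype was b''ab''b, a double mutant in the genes for B''α and B''β. These are regulatory subunits of PP2A (protein phosphatase 2A), an enzyme that removes phosphate groups from proteins. The other was the wild type Col-0, which carries both genes. Seeds of both genotypes were kept for 3 days in the cold and for 3 h in white light (25 µmol per square metre per second), and then grew for 4 days in the dark at 22 °C. Red light seedlings then received 1 h of red light (8 µmol in the same unit), and dark seedlings stayed in the dark. The time of harvest was not among the sample details used here. Whether both light conditions were sampled at the same time is therefore not known here. The 4 groups (double mutant in red light, double mutant in the dark, wild type in red light, wild type in the dark) had 3 libraries each. The sources used here do not give the mutant alleles, nor whether the replicates of a group were separate cultures. If the replicates were technical, the p-values measure the spread of the libraries only.

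Reads were 3′ tags, read close to the ends of transcripts, and a library held 2874429 to 4979055 counts. At that depth 3 counts, which a count of 0 still allows, equal 0.578 to 1.02 CPM, counting error only. CPM are counts scaled to a common library size, here with TMM factors. For the mutated gene B''α the 6 libraries of b''ab''b held 3.88 to 6.29 CPM, against 24.4 to 31.2 CPM in the 6 of the wild type. B''β had 3 to 9 counts per double mutant library, against 8 to 20 per wild type library. A tag outside the disrupted part of a gene says little about the allele. Sums of root, shoot epidermis and phloem markers were found in all libraries. The seed storage markers CRA1, CRU3 and OLEO1 summed to 1.18 to 7.20 CPM in 11 libraries and to 37.6 CPM in replicate 1 of the double mutant in the dark. On the second principal component of all genes (9.92% of the variance), replicate 3 of the double mutant and replicate 1 of the wild type, both in the dark, stood apart from the other dark libraries. Without that pair of libraries 10 of the 10 genes rose in red light in the double mutant and 9 in the wild type, with median log2 changes of 1.47 and 1.53, and 0 differed by genotype.

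In both genotypes the morning genes as a set stood higher after 1 h of red light. Their summed level was 1159 ± 37.7 CPM in red light against 521 ± 23.7 CPM in the dark in the double mutant, and 1167 ± 19.1 CPM against 527 ± 6.94 CPM in the wild type (SD, n = 3). Of the 10 genes, 9 rose in the double mutant and 9 in the wild type, RVE2 being the exception in each (edgeR quasi-likelihood test, Benjamini-Hochberg adjusted p under 0.05 over all genes tested). None of the 10 fell in either genotype, and none had an estimate below 0. Among all genes tested, 10.7% rose and 5.27% fell in the double mutant, and 10.6% rose and 4.68% fell in the wild type. The median log2 change of the 10 genes was 1.47 in the double mutant and 1.54 in the wild type, beside −0.01 and −0.02 over all genes tested. Every red light library lay above every dark library for 10 of the 10 genes in the double mutant, where 17% of all genes did so, and for 9 of the 10 in the wild type, where 16.5% did. In whole seedlings, fewer cells of a type and less RNA per cell cannot be told apart in any of these values.

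**Figure D1:**
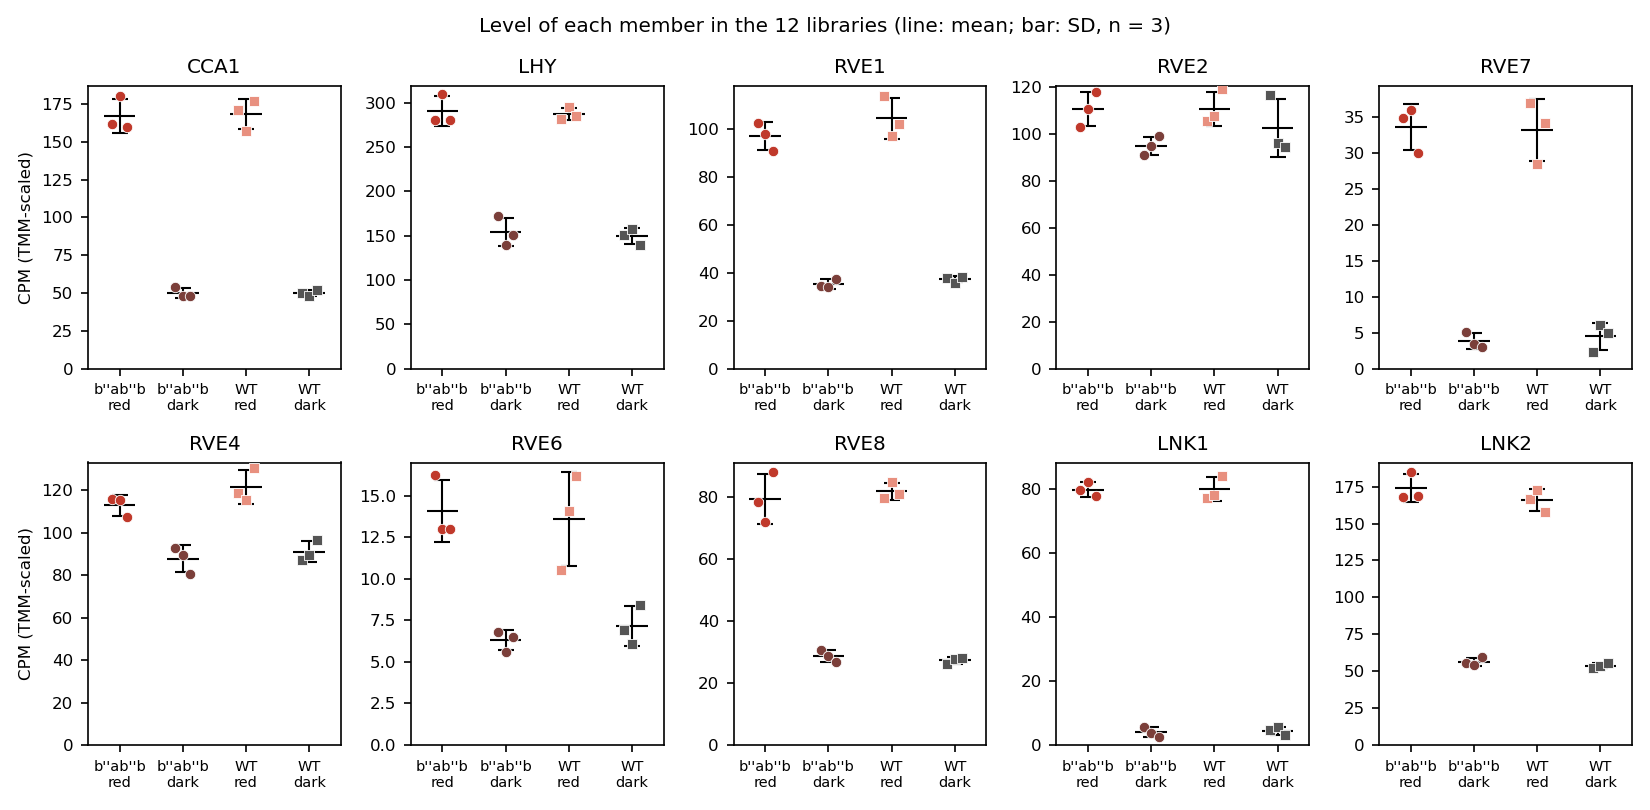
Level of each of the 10 genes in every library, in CPM on TMM-scaled library sizes, by group; points are libraries, lines are means and bars are SD (n = 3). In 9 of the 10 panels the red light libraries sit above the dark libraries in both genotypes, and in the RVE2 panel the wild type groups overlap.

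CCA1 (chromosome 2, 19245591 to 19248915 in TAIR10.1) and LHY (chromosome 1, 33365 to 37871), the partly redundant repressors of evening genes, both rose. In the double mutant CCA1 had 162, 180.3 and 159.5 CPM in the red light libraries, against 53.9, 48.1 and 48.2 CPM in the dark libraries. In the wild type the CCA1 values were 171, 157 and 177 CPM in red light, against 49.9, 48.0 and 52.0 CPM in the dark. The red light libraries were about 3.35-fold higher in the double mutant and 3.37-fold higher in the wild type, and the groups did not come near each other. As log2 changes these were 1.75 ± 0.09 (SE) in the double mutant (edgeR adjusted p = 4.28e-13, n = 3 per group) and 1.75 ± 0.09 in the wild type (edgeR adjusted p = 3.91e-13).

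LHY moved less than CCA1. It had 281, 310.5 and 280.3 CPM in the red light libraries of the double mutant, against 172, 140.0 and 150.4 CPM in its dark libraries. In the wild type LHY had 281, 295 and 286 CPM in red light, against 151, 157 and 139.9 CPM in the dark. The groups were again fully separate, with the 6 red light libraries between 280.3 and 310.5 CPM and the 6 dark libraries between 139.9 and 172 CPM. The log2 change of LHY was 0.92 ± 0.08 in the double mutant (edgeR adjusted p = 6.69e-09) and 0.94 ± 0.08 in the wild type (edgeR adjusted p = 4.94e-09).

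The output genes RVE1 (chromosome 5, 5690225 to 5692992 in TAIR10.1), RVE2 (chromosome 5, 14751344 to 14753088) and RVE7 (chromosome 1, 6305814 to 6308243) differed widely from each other. RVE1, which promotes auxin synthesis and hypocotyl growth and acts on seed dormancy, had 103, 97.8 and 90.9 CPM in red light, against 34.2, 34.2 and 37.5 CPM in the dark in the double mutant. In the wild type it had 114, 97.0 and 102 CPM in red light, against 37.9, 35.9 and 38.2 CPM in the dark. The 6 red light libraries lay between 90.9 and 114 CPM and the 6 dark libraries between 34.2 and 38.2 CPM. It rose by 1.45 ± 0.10 on the log2 scale in the double mutant (edgeR adjusted p = 4.03e-11) and by 1.48 ± 0.09 in the wild type (edgeR adjusted p = 2.65e-11).

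RVE7 had few counts in the dark, 12 to 22 per library, and many more after red light. It had 34.8, 36.0 and 30.0 CPM in red light, against 5.09, 3.37 and 2.96 CPM in the dark in the double mutant, and 37.0, 28.4 and 34.2 CPM in red light, against 2.31, 6.07 and 5.01 CPM in the dark in the wild type. The groups did not overlap, and the dark libraries of the wild type were the most uneven. RVE7 rose by 3.20 ± 0.23 on the log2 scale in the double mutant (edgeR adjusted p = 1.61e-10) and by 2.98 ± 0.22 in the wild type (edgeR adjusted p = 4.12e-10). Without the pair of dark libraries that stood apart the RVE7 change was 3.04 in the double mutant and 2.58 in the wild type. The related locus AT3G10113 had 0 to 5 counts in every library, and the sources used here do not say how reads that match both genes were handled.

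RVE2, which like RVE1 acts downstream of the clock, was the only one of the 10 genes without a call. It had 103, 111 and 118 CPM in red light, against 91.2, 94.8 and 99.1 CPM in the dark in the double mutant, and 106, 108 and 119 CPM in red light, against 117, 96.2 and 94.6 CPM in the dark in the wild type. In the double mutant the red light libraries were all slightly higher, while in the wild type replicate 1 in the dark lay among the red light libraries. The RVE2 difference was 0.21 on the log2 scale in the double mutant (95% interval 0.02 to 0.41, edgeR adjusted p = 0.130) and 0.11 in the wild type (−0.08 to 0.30, edgeR adjusted p = 0.517). Without the libraries that stood apart, RVE2 passed in the double mutant (log2 0.25, edgeR adjusted p = 0.0470) and not in the wild type (0.22, edgeR adjusted p = 0.0898).

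Promoter sequence of CCA1, LHY, RVE1, RVE2 and RVE7 is shown because these 5 genes held a G-box or an evening element within 240 bases before the annotated gene start, the elements through which light and clock factors are known to act. The sequences were read from the TAIR10.1 assembly of RefSeq, 5′ to 3′ on the strand of each gene. Capitals mark the G-box (CACGTG) in CCA1 (chr2:19245351-19245590, plus strand), LHY (chr1:37872-38111, minus strand), RVE1 (chr5:5692993-5693232, minus strand) and RVE2 (chr5:14753089-14753328, minus strand, where a second run of capitals is the PBE-box CACATG). In RVE7 (chr1:6308244-6308483, minus strand) they mark the evening element (AAAATATCT).
CCA1: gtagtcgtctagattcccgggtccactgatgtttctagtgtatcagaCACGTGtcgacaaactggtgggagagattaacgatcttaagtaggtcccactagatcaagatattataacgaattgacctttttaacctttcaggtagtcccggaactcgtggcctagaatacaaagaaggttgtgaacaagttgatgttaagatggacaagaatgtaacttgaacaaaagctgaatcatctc
LHY: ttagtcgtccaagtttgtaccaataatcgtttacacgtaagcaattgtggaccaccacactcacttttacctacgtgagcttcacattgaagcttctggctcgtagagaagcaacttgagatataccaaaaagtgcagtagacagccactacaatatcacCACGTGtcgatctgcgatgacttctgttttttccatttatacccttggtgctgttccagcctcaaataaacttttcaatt
RVE1: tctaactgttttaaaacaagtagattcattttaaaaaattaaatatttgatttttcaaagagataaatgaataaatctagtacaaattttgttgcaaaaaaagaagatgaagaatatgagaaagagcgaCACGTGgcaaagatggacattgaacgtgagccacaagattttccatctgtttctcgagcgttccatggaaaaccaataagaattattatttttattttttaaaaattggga
RVE2: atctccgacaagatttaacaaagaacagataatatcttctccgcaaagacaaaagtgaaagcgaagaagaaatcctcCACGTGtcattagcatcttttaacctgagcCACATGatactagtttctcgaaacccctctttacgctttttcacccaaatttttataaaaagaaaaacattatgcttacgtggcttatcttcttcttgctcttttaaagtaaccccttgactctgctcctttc
RVE7: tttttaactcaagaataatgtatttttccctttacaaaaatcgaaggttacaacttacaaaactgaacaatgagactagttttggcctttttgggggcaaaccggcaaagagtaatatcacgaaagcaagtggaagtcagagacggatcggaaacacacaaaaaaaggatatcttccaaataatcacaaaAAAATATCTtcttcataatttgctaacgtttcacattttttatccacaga

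The G-box lay 193 to 188 bases before the start in CCA1, 80 to 75 in LHY, 111 to 106 in RVE1 and 163 to 158 in RVE2. Over both strands, 4 of the 10 genes held CACGTG in this window, beside 6.33% of the 27443 promoters of the same length. The evening element lay 50 to 42 bases before the start of RVE7, 1 of the 10 genes, beside 2.29% of all promoters. The CCA1-binding site AAAAATCT occurred only in RVE6 (58 to 51 bases before its start) among the 10 genes, beside 6.41% of all promoters. The PBE-box CACATG, an element bound by PIF proteins, occurred in RVE2 (133 to 128) and LNK2 (41 to 36), beside 10.7% of all promoters. None of these elements was found for RVE4, whose window overlaps other annotated genes. Genes with a G-box included RVE2, which was not called, and RVE7 and LNK1, with the largest estimated changes, held none in the window. These are matches of letters and not measured binding. Whether any of these elements bears on the size of a response was not tested.

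The activators of evening genes RVE8 (chromosome 3, 2946239 to 2949017 in TAIR10.1), RVE4 (chromosome 5, 648648 to 651979) and RVE6 (chromosome 5, 21359001 to 21362273) all rose, by unequal amounts. RVE8 had 78.3, 71.7 and 87.9 CPM in red light, against 30.5, 28.5 and 26.8 CPM in the dark in the double mutant. In the wild type RVE8 had 79.4, 84.8 and 80.9 CPM in red light, against 26.0, 27.9 and 27.9 CPM in the dark. The 6 red light libraries lay between 71.7 and 87.9 CPM and the 6 dark libraries between 26.0 and 30.5 CPM. RVE8 rose by 1.48 ± 0.10 on the log2 scale in the double mutant (edgeR adjusted p = 1.03e-10) and by 1.59 ± 0.10 in the wild type (edgeR adjusted p = 3.89e-11).

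RVE4 changed little by comparison. It had 116, 115 and 107 CPM in red light, against 92.9, 89.7 and 80.5 CPM in the dark in the double mutant, and 119, 115 and 131 CPM in red light, against 87.0, 89.6 and 96.7 CPM in the dark in the wild type. The groups stayed apart in both genotypes. The log2 change of RVE4 was 0.37 ± 0.09 in the double mutant (edgeR adjusted p = 0.00286) and 0.42 ± 0.08 in the wild type (edgeR adjusted p = 8.34e-04).

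RVE6 had the fewest counts among these activators. It had 16.3, 13.0 and 13.0 CPM in red light, against 6.78, 5.62 and 6.51 CPM in the dark in the double mutant, and 10.5, 14.1 and 16.2 CPM in red light, against 6.93, 6.07 and 8.45 CPM in the dark in the wild type. The groups did not overlap, although the lowest wild type library in red light came close to the highest in the dark. RVE6 rose by 1.17 ± 0.21 in the double mutant (edgeR adjusted p = 2.54e-04) and by 0.94 ± 0.21 in the wild type (edgeR adjusted p = 0.00231) on the log2 scale.

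The coactivator genes LNK1 and LNK2 both rose, and LNK1 had the largest estimated change of the 10 genes. LNK1 had 79.7, 82.3 and 77.9 CPM in red light, against 5.76, 3.82 and 2.57 CPM in the dark in the double mutant. In the wild type LNK1 had 77.4, 78.3 and 84.3 CPM in red light, against 4.81, 5.52 and 3.13 CPM in the dark. Its 6 dark libraries held 10 to 25 counts each, and its 6 red light libraries lay between 77.4 and 84.3 CPM. LNK1 was 20.9-fold higher in the double mutant (log2 4.39 ± 0.17, edgeR adjusted p = 4.50e-15) and 17.4-fold higher in the wild type (4.12 ± 0.16, edgeR adjusted p = 8.09e-15). Counted from the largest rise downwards, it ranked 20 of the 18487 genes in the double mutant and 16 in the wild type. Large falls do not count in this order.

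LNK2 rose in both genotypes as well. It had 168, 185 and 169 CPM in red light, against 55.6, 54.2 and 59.4 CPM in the dark in the double mutant, and 167, 173 and 158 CPM in red light, against 52.4, 53.5 and 55.4 CPM in the dark in the wild type. The libraries of the light conditions were far apart in both genotypes. LNK2 rose by 1.62 ± 0.08 on the log2 scale in the double mutant (edgeR adjusted p = 4.43e-13) and by 1.63 ± 0.08 in the wild type (edgeR adjusted p = 4.95e-13).

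Both LNK genes end inside a gene of the opposite strand. The 3′ end of LNK1 (chromosome 5, 25672466 to 25676823 in TAIR10.1, minus strand) overlaps AT5G64160 by 245 bases, and that of LNK2 (chromosome 3, 20175370 to 20179070, minus strand) overlaps AT3G54490 by 93 bases. Tags from these stretches can be divided only by strand, and the sources used here do not give the strand setting of the counting. AT5G64160 itself stood at 69.1 ± 7.34 CPM in red light against 30.2 ± 1.57 CPM in the dark in the double mutant (log2 1.20), and at 78.1 ± 4.05 CPM against 30.5 ± 3.56 CPM in the wild type (1.36). AT3G54490 had 9.65 ± 1.68 CPM in red light against 4.26 ± 1.41 CPM in the dark in the double mutant (log2 1.24). In the wild type AT3G54490 had 11.7 ± 3.48 CPM against 3.91 ± 1.14 CPM (log2 1.64). Inside RVE1 lies AT5G17305, with 0 or 1 count per library, and inside LNK2 the long non-coding RNA gene AT3G08405, with 0 to 3. Whether reads of these neighbours entered the LNK counts was not tested.

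**Figure D2:**
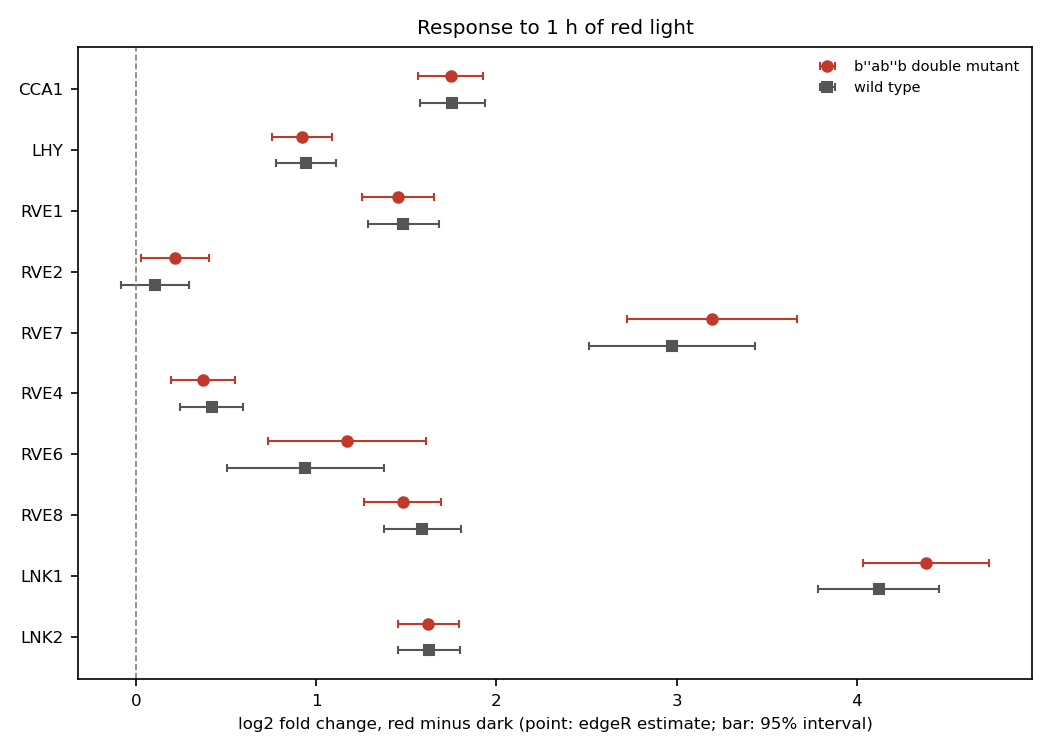
Response of each of the 10 genes to 1 h of red light, as the log2 fold change of red light over dark with its 95% interval from edgeR, in the double mutant and the wild type. LNK1 (4.39 and 4.12) and RVE7 (3.20 and 2.98) lie to the right of the others, and the intervals of the genotypes overlap for every gene.

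Because close relatives moved by unequal amounts, the ratio of their counts within a library was set against light over the 6 red light and the 6 dark libraries. A shift in this ratio does not depend on library size, and its absolute level was not read. The 8 pairs were the pairs within each subfamily, chosen after the values of the genes were seen. CCA1 gained on LHY: the log2 ratio was −0.79 ± 0.08 in red light and −1.60 ± 0.10 in the dark (SD, n = 6 each), a shift of 0.81 (exact permutation test, two-sided, p = 0.00216, the smallest that 6 against 6 libraries can give, and 0.00247 adjusted over the 8 pairs). The same p-values from the same exact permutation test were obtained for 6 other pairs, in each of which the red light libraries did not overlap the dark libraries. Pairs that share a gene are not independent of each other.

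Among the output RVE genes, RVE1 gained 1.30 on RVE2, RVE7 gained 1.58 on RVE1 and RVE7 gained 2.88 on RVE2, as red minus dark shifts of the log2 ratio. Among the activators RVE8 gained 1.13 on RVE4 and RVE6 gained 0.63 on RVE4. For RVE6 against RVE4 the light conditions nearly touched, with a lowest red light ratio of −3.48 and a highest dark ratio of −3.49. RVE8 gained 0.50 on RVE6, with ratios of 2.26 to 2.90 in red light and 1.70 to 2.32 in the dark, which overlap slightly (exact permutation test, two-sided, p = 0.00649, also after adjustment over the 8 pairs). LNK1 gained 2.62 on LNK2, with log2 ratios of −1.17 to −0.90 in red light and −4.48 to −3.23 in the dark. In each subfamily the ratio of at least 1 pair did not overlap between the light conditions. The unequal changes that prompted these ratios came from the same libraries, so the p-values are not separate support for them.

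**Figure D3:**
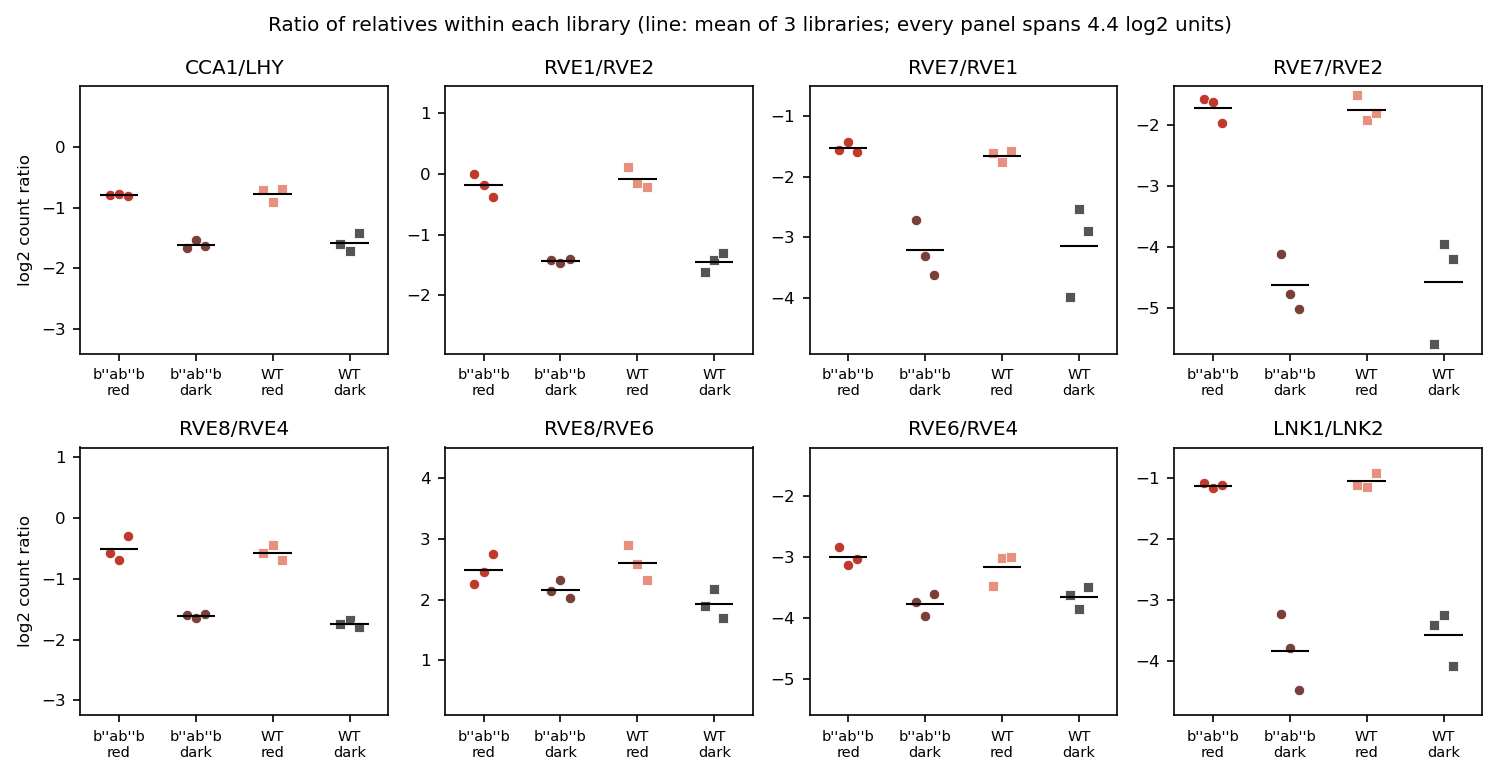
Log2 ratio of the counts of related genes within each library (0.5 added to each count), by group; points are libraries and lines are means of 3. The axis ranges are equal in length in every panel; the LNK1/LNK2 and RVE7/RVE2 panels show the widest gaps between red light and dark (shifts of 2.62 and 2.88), and the RVE8/RVE6 panel the narrowest (0.50).

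No difference between the genotypes was detected in any of the 10 genes. In red light 0 of 10 passed for the double mutant against the wild type (edgeR, beside 0.0811% of all genes tested, either direction), and in the dark 0 of 10 passed (beside 0.0541%). Averaged over both light conditions it was 0 of 10 as well (beside 0.119%). In each of these comparisons 0 of the 10 had an unadjusted p under 0.05, and DESeq2 and limma-voom also called 0. The libraries of the genotypes overlapped for all 10 genes in red light and in the dark. Over all genes tested, 11.1% in red light and 8.81% in the dark showed no overlap. For a set of 10 genes, 0 is near these shares, so the overlap is not particular to the set.

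The differences were small, with intervals that depended on how many counts a gene had. In red light the log2 difference, double mutant minus wild type, ran from −0.11 (RVE4) to 0.07 (LNK2). The median size of the difference over the 10 genes was 0.03 in red light, beside 0.11 over all genes tested. In the dark it was 0.075, beside 0.11. These medians were not matched for the number of counts a gene had, so they do not set the 10 genes apart. For CCA1 in red light the difference was −0.01 (95% interval −0.18 to 0.15), for LHY 0.02 (−0.15 to 0.18) and for LNK1 −0.0026 (−0.22 to 0.22). The other values in red light were −0.11 for RVE1, −0.0049 for RVE2, 0.01 for RVE7, 0.05 for RVE6 and −0.04 for RVE8. In the dark the differences ran from −0.27 (LNK1, interval −0.83 to 0.30) to 0.07 (LNK2, −0.11 to 0.26). RVE7 and RVE6, which like LNK1 had few dark counts, gave −0.21 (−0.90 to 0.47) and −0.18 (−0.67 to 0.31). For the others the difference in the dark was −0.0034 for CCA1, 0.04 for LHY, −0.08 for RVE1, −0.11 for RVE2, −0.06 for RVE4 and 0.07 for RVE8.

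The response to red light itself was set against genotype as an interaction. It passed for 0 of 10 genes (edgeR, beside 0% of all genes tested), and 0 of the 10 had an unadjusted p under 0.05. Over all genes tested, 613 had an unadjusted p under 0.05 for this interaction, DESeq2 called 1 and limma-voom 0. The response of CCA1 in the double mutant minus that in the wild type was −0.01 on the log2 scale (−0.27 to 0.25), that of LHY −0.02 (−0.26 to 0.21) and that of LNK2 −0.01 (−0.25 to 0.23). It was −0.03 for RVE1 (−0.31 to 0.25), 0.11 for RVE2 (−0.16 to 0.38), −0.05 for RVE4 (−0.30 to 0.20) and −0.11 for RVE8 (−0.41 to 0.20). For the 3 genes with few dark counts the intervals were wider: 0.22 for RVE7 (−0.54 to 0.98), 0.26 for LNK1 (−0.34 to 0.87) and 0.23 for RVE6 (−0.40 to 0.86), so a difference of that size was not detectable at this depth.

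**Figure D4:**
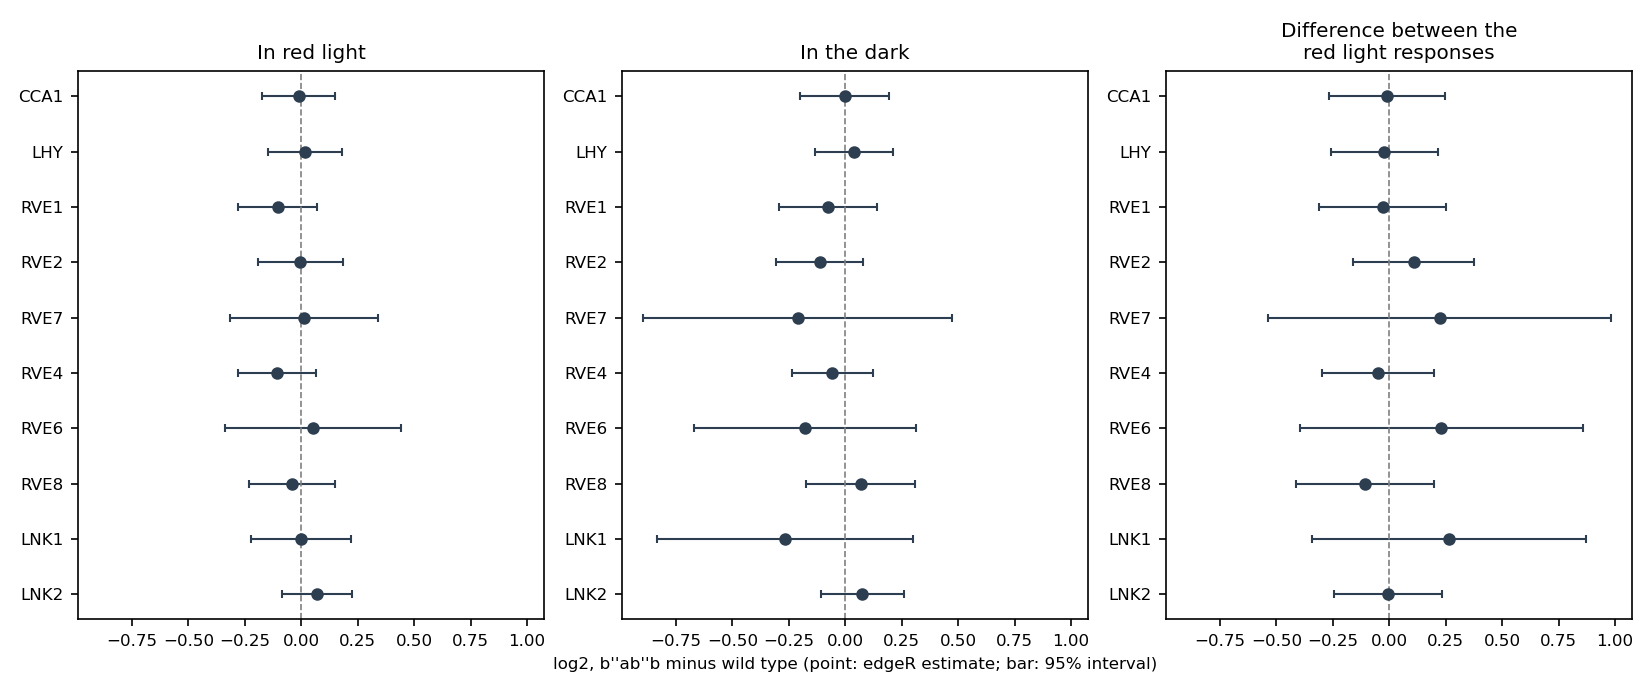
Difference between the double mutant and the wild type for each of the 10 genes in red light, in the dark and between their red light responses, as log2 values with 95% intervals from edgeR. Every interval includes 0, and those of RVE7, RVE6 and LNK1 are widest in the dark and in the difference between responses.

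The relatives left out of the 10 genes were followed as a further list: RVE3, RVE5, the RVE7-like locus AT3G10113, LNK3 and LNK4. Of these 5 genes 4 had enough counts, and all 4 rose in both genotypes (edgeR). The share rising over all genes tested was 10.7% in the double mutant and 10.6% in the wild type. RVE3 had 72 to 89 counts per library in red light against 0 to 3 in the dark in the double mutant, and 82 to 103 against 1 to 4 in the wild type (log2 5.83 ± 0.36 and 4.98 ± 0.32). LNK3 stood at 85.2 ± 1.63 CPM in red light against 13.1 ± 0.742 CPM in the dark in the double mutant (log2 2.71 ± 0.14), and at 88.4 ± 2.65 CPM against 12.5 ± 4.11 CPM in the wild type (2.81 ± 0.14). LNK4 likewise rose, by 2.97 ± 0.13 in the double mutant and 2.99 ± 0.13 in the wild type. LNK1, LNK3 and LNK4 each had a larger estimated change than LNK2 in both genotypes, and of these differences only that of LNK1 was tested.

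RVE5 rose least among these relatives, by 0.54 ± 0.15 in the double mutant (edgeR adjusted p = 0.0143) and 0.60 ± 0.15 in the wild type (edgeR adjusted p = 0.00602). In the double mutant it no longer passed without dark replicate 3 (log2 0.39, edgeR adjusted p = 0.114) or without red light replicate 2 (0.49, edgeR adjusted p = 0.0635). In the wild type it no longer passed without dark replicate 1 (0.43, edgeR adjusted p = 0.0730).

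Of 15 other clock genes, among them the targets and later repressors of the morning genes, 14 had enough counts, and 7 rose and 1 fell in each genotype (edgeR). The shares over all genes tested were 10.7% rising and 5.27% falling in the double mutant, and 10.6% and 4.68% in the wild type. The median log2 change of the 14 clock genes was 0.54 in the double mutant and 0.37 in the wild type, also with PRR9 at its lower bound. PRR9 and PRR7, morning-phased repressors of CCA1 and LHY, both rose. PRR9 had 0 counts in every dark library and 5.38 ± 1.20 CPM in red light in the double mutant and 4.97 ± 0.610 CPM in the wild type, which is at least 7.07-fold and at least 6.36-fold higher than 3 counts per library. PRR7 rose by 2.57 ± 0.18 in the double mutant and 2.63 ± 0.18 in the wild type. PRR5, which acts after them in the day, rose by 2.02 ± 0.50 and 2.21 ± 0.50, and its call in the double mutant was lost without red light replicate 3 (edgeR adjusted p = 0.0596).

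Genes of the evening were among those that rose. GI, which encodes a scaffold protein, rose by 3.37 ± 0.20 in the double mutant and 3.25 ± 0.20 in the wild type. Of the evening complex, which represses PRR9, ELF4 rose by 1.87 ± 0.22 and 2.57 ± 0.25, LUX rose by 1.14 ± 0.15 and 1.14 ± 0.15, and ELF3 was not called (log2 0.12 and 0.15). ELF3 passed in the wild type without dark replicate 1 (log2 0.34, edgeR adjusted p = 0.0442). The F-box gene ZTL, which is not counted here among the evening genes, rose by 0.69 ± 0.15 and 0.59 ± 0.14.

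TOC1, the evening repressor that CCA1 and LHY hold down, stood at 20.9 ± 3.44 CPM in red light against 19.7 ± 3.24 CPM in the dark in the double mutant, and 21.8 ± 4.49 CPM against 19.8 ± 9.06 CPM in the wild type. Its log2 change was 0.06 (95% interval −0.42 to 0.54) and 0.08 (−0.39 to 0.56), and in the wild type it was 0.57 without the libraries that stood apart (edgeR adjusted p = 0.0478). PRR3, LKP2 and COR28 were not called in either genotype. The gene that fell was BOA, a relative of LUX, in the double mutant (−0.50 ± 0.17, edgeR adjusted p = 0.0455) and COR27, a repressor within the clock, in the wild type (−1.29 ± 0.41, edgeR adjusted p = 0.0328). DESeq2 called neither (adjusted p = 0.152 and 0.123). For BOA the call was lost in 8 of the 12 runs that left out a library and for COR27 in 4 of the 12.

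**Figure D5:**
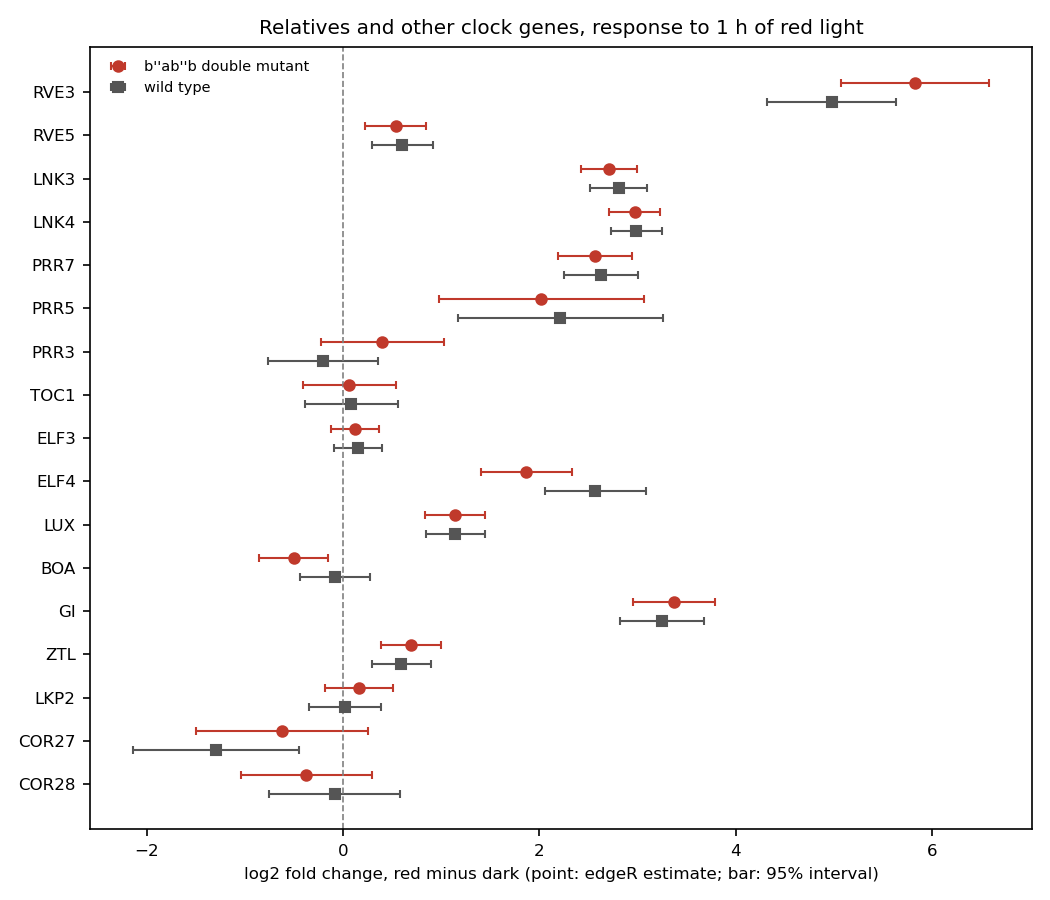
Response to 1 h of red light of 4 relatives and 13 other clock genes, as log2 fold changes of red light over dark with 95% intervals from edgeR, in the double mutant and the wild type. PRR9 is left out because its dark libraries held 0 counts. RVE3, GI, LNK4, LNK3 and PRR7 lie furthest to the right, and the intervals of PRR3, TOC1, ELF3, LKP2 and COR28 include 0 in both genotypes.

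Of 16 known regulators of CCA1 and LHY, 1 rose and 2 fell in the double mutant, and 1 rose and 1 fell in the wild type (edgeR), beside 10.7% rising and 5.27% falling among all genes tested in the double mutant and 10.6% and 4.68% in the wild type. HY5, a bZIP factor that promotes light responses and binds G-boxes, rose in both genotypes, with 168 ± 16.2 CPM in red light against 31.6 ± 3.23 CPM in the dark in the double mutant (log2 2.39 ± 0.10) and 175 ± 1.65 CPM against 33.6 ± 1.90 CPM in the wild type (2.39 ± 0.10). PIF3, a phytochrome-interacting factor that binds the same element, fell, by 0.55 ± 0.11 in the double mutant (edgeR adjusted p = 8.73e-04) and by 0.57 ± 0.11 in the wild type (edgeR adjusted p = 5.26e-04) on the log2 scale. CKB3, a subunit of the kinase CK2 that phosphorylates CCA1, passed as lower in the double mutant (−0.36, edgeR adjusted p = 0.0459), but not with DESeq2 (0.0787) or limma-voom (0.0553), and in 7 of the 12 runs that left out a library it did not pass. The other 13 were not called in either genotype: CHE, TCP20, TCP22, LWD1, LWD2, FIO1, JMJ30, CKB4, PRMT5, TPL, DET1, FHY3 and FAR1. Of these JMJ30 passed in the double mutant without red light replicate 1 (−0.63, edgeR adjusted p = 0.0485) and LWD2 in the wild type without dark replicate 3 (−0.68, edgeR adjusted p = 0.0320).

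Of 8 genes known as outputs of RVE1 or CCA1, 6 rose and 1 fell in each genotype (edgeR). Over all genes tested, 10.7% rose and 5.27% fell in the double mutant, and 10.6% and 4.68% in the wild type. GA3OX2, a gibberellin synthesis gene that RVE1 represses in seeds, rose from few counts, with 6.53 ± 1.10 CPM in red light against 0.590 ± 0.857 CPM in the dark in the double mutant and 5.85 ± 2.04 CPM against 0.610 ± 0.627 CPM in the wild type. PORA, a gene bound by RVE1 that encodes a light-dependent enzyme of chlorophyll synthesis, fell, with 1220.1 ± 119.7 CPM in red light against 1945 ± 55.1 CPM in the dark in the double mutant and 1329.6 ± 105 CPM against 2000.2 ± 119.8 CPM in the wild type. The growth-promoting factors PIF4 and PIF5 rose, PIF4 by 1.59 ± 0.14 and 1.98 ± 0.14 and PIF5 by 2.02 ± 0.10 and 1.89 ± 0.10 on the log2 scale in the double mutant and the wild type. YUC8, the auxin synthesis gene that RVE1 activates, was not called (0.05, 95% interval −0.27 to 0.37, and 0.17, −0.14 to 0.48).

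The antenna genes CAB1, CAB2 and CAB3 of the LHCB1 group, near-identical copies whose reads can be split uncertainly, rose by 0.32 to 0.75 in the double mutant and by 0.25 to 0.66 in the wild type. DESeq2 did not call CAB2 in either genotype (adjusted p = 0.156 and 0.131). With edgeR its call was lost in the double mutant without dark replicate 3 (adjusted p = 0.104), red light replicate 1 (0.0510) or red light replicate 2 (0.102), and in the wild type without dark replicate 1 (0.0881), red light replicate 1 (0.0740) or red light replicate 3 (0.0591). Of the relatives, other clock genes, regulators and outputs, 0 differed between the genotypes with edgeR in red light, in the dark, on average or in their response, although 2 other clock genes and 1 regulator had an unadjusted p under 0.05 in the dark, as did 2 other clock genes on average over both light conditions.

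Across the 12 libraries the 10 genes were also compared by the shape of their profile, as the root mean square difference of log2 CPM after each gene's mean was removed. Within the set CCA1 and LNK2 were closest (0.109), then RVE8 and LNK2 (0.127), while LNK1 and RVE2 were furthest apart. RVE2 was nearest to RVE4 (0.178) and LHY to RVE6 (0.214). All 13386 genes whose mean log2 CPM reached 3 were then searched for profiles like those of 4 of the genes, as a description over shared libraries.

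The profiles nearest to CCA1 were those of AT5G47610 (0.0667), GLK2, a factor of chloroplast development (0.102), and SPA1, a partner of the COP1 repressor of light responses (0.105). For LHY they were GGT1, an aminotransferase of photorespiration (0.0671), ENH1 (0.0766) and AT4G16983 (0.0816). For LNK2 they were LLG3 (0.0908), the B-box gene COL2 (0.0950) and the cytosolic chaperone gene HSP81-2 (0.0953). LNK1 had no profile as close: AT3G56290 (0.269), the chaperone gene HSP70 (0.310) and the plastid sigma factor gene SIGE (0.312) came nearest. The dark libraries held only 10 to 25 counts of LNK1 each, and the part of counting error in its distances was not tested. All 12 of these genes were higher in red light. That direction follows from the search, because CCA1, LHY, LNK1 and LNK2 themselves rose, and it is not a separate result.

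Markers of cell types were set beside these results. The sum of 4 root markers was 239 to 250 CPM in red light against 193 to 228 CPM in the dark in the double mutant, and 229 to 247 CPM against 200.1 to 215 CPM in the wild type. Of these RHD6, COBL9 and CASP1 were not called, and SCR passed in both genotypes (0.30 and 0.31, edgeR adjusted p = 0.0365 and 0.0347) but not with DESeq2 (0.0822 and 0.0662), and not in 7 and 5 of the 12 runs that left out a library. In the double mutant 3 shoot epidermis markers summed to 836 to 877 CPM in red light against 796 to 840.4 CPM in the dark. In the wild type their sum was 816 to 820.1 CPM against 800.4 to 821 CPM. With edgeR 0 of 3 were called (1 of 3 and 2 of 3 at an unadjusted p under 0.05), and limma-voom called FDH in the wild type. Without the dark libraries that stood apart FDH passed in both genotypes (edgeR adjusted p = 0.0345 and 0.0447). In the wild type FDH also passed without dark replicate 1 (edgeR adjusted p = 0.0499) or dark replicate 3 (0.0410) of the double mutant. Of the phloem markers SUC2 was not called and APL rose by 0.52 and 0.81, a call that DESeq2 did not make in the double mutant (adjusted p = 0.111) and that was lost there without dark replicate 2 (0.0933), dark replicate 3 (0.129) or red light replicate 2 (0.204). Their part in the changes of the morning genes was not tested.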

How the data were processed

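RNA was measured in 12 libraries of whole seedlings, 3 in each of 4 groups. The authors deposited a table of raw counts for each gene, made, per the labels, from total RNA turned into 3′ tag libraries. HISAT2, HTSeq, edgeR, FastQC and the build TAIR10 are named in the submitters' processing notes, with no versions, settings or roles. Columns were matched to samples by title. HTSeq summary lines were left out. Ambiguous reads, counted for no gene, came to 0.943 to 1.28% of the counts given to genes.

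Differences were tested with edgeR 4.0.16 (R 4.3.3) on the deposited counts: TMM factors, a filter by filterByExpr (minimum count 10), 1 quasi-likelihood fit with 4 group terms for the 12 libraries, and Benjamini-Hochberg adjustment over the 18487 genes tested (threshold 0.05). Intervals are 95%. Levels are CPM after TMM scaling, and profiles were compared on log2 CPM with a prior count of 2. Within-library ratios, with 0.5 added to each count, were compared by exact permutation tests (scipy 1.17.1). Scripts were tested on simulated data. No pair of replicates was as alike as sampling noise alone allows (chi-square per degree of freedom at least 1.56), so none was merged. Promoter windows and gene overlaps come from RefSeq's TAIR10.1 genome and annotation, to which all 66 loci of the lists matched by locus identifier.

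The genes, lists and pairs were chosen with earlier results of these data known. All 10 genes could be named in every comparison, and nearest profiles were searched for CCA1, LHY, LNK1 and LNK2; from the other lists any gene could be named, with counts for the whole list, and the first 3 of each search are given. Alternatives were DESeq2 1.42.0, limma-voom (limma 3.58.1), RLE factors, no filter, a filter at a mean of 5 CPM, a replicate block, only the groups compared, each library left out, and both dark libraries that stood apart left out. For the ratios they were a pseudocount of 1 and the same left-out libraries, added after seeing the data.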

Additional observations from a re-analysis of the deposited data

How the results depend on the processing

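The calls of the 10 genes hardly depended on the processing. Under 20 alternatives each, 199 of 200 calls in the double mutant's red light response and 200 of 200 in the wild type's stayed on their side of the threshold with their direction; the exception was RVE2 in the double mutant, which passed without the pair of dark libraries that stood apart. The 8 ratio shifts kept direction and threshold under 14 alternatives each. In the genotype comparisons 0 of the 10 genes passed under any alternative that was run. With the replicate number as a block 9 of the 10 genes rose in each genotype. For same-numbered libraries of different groups, deviations from the group mean correlated at −0.17 to 0.15 over 18 pairs, 2 over 0.1. Libraries with different numbers gave −0.27 to 0.35 over 36 pairs, 6 over 0.1. Whether an equal number marks a shared culture or batch cannot be told from these values.

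Counts over all genes tested moved more. Between double mutant and wild type in red light 15 genes were called, beside 68 with no filter, 43 with only those groups in the fit, 46 without the dark libraries that stood apart and 9 to 17 with a library left out. In the dark it was 10, beside 69 with no filter and 8 to 24 with a library left out. For the difference between the red light responses it was 0, beside 1 with DESeq2, 28 with no filter, 2 without the dark libraries that stood apart and 0 to 3 with a library left out. For the mean genotype difference it was 22, beside 116 with no filter, 14 at a mean of at least 5 CPM, 14 with the replicate block, 36 without the dark libraries that stood apart and 14 to 36 with a library left out. The counts called in the red light responses stayed within 2351 to 3259 in the double mutant and 2210 to 3118 in the wild type. The cause was not tested.

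Depth limits what can be said of RVE7, RVE6 and LNK1 in the dark. The sources used here do not give strand, alleles or the origin of the replicates.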
